A study of Mus musculus with 8 samples.

Results

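The imprinted genes examined here were a fixed list of 33 genes that are expressed mainly from 1 parental chromosome in at least some mouse tissues. They were picked by gene symbol from count tables of 27179 Entrez gene identifiers, and all 33 were found. RNA came from thymic epithelial cells (TECs) of C57BL/6 mice, the stromal cells on which developing T cells are selected. The groups were cortical cells (cTECs) with an Mcl1 knock-out (KO, 1 library), wild-type (WT) cTECs (4 libraries), medullary cells (mTECs) with the Mcl1 knock-out (1 library) and WT mTECs (2 libraries), and the series' design text calls the samples biological replicates. The MCL1 protein keeps cells alive by holding back the proteins that open mitochondria in apoptosis. The labels name no age, no Cre driver and no deleted exon.

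Imprinted genes carry methylation marks laid down in the egg or the sperm, so that one parental copy is silenced. Many lie in clusters that share a control region, and many act on fetal growth: Igf2 promotes growth, while Igf2r, Grb10 and Cdkn1c restrain it. Several fall to low levels in most tissues after birth. Medullary TECs, in part through AIRE, transcribe a wide range of tissue-restricted genes at low level. The counts are per gene and do not separate the parental copies, so each value is the sum over both.

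Promoter windows are shown for 4 of the genes. No window was available for Cdkn1c or Kcnq1. Plagl1 encodes a zinc finger factor that regulates other imprinted genes in mouse, and Igf2 is one of its reported targets. Kcnq1ot1 starts inside Kcnq1, at the control region of the cluster that also holds Cdkn1c. Peg3 is transcribed head to head with Usp29, and their windows overlap by 263 bases. Each window holds 300 bases, from 250 before to 50 after an annotated start, is written on the strand of the gene and comes from RefSeq on GRCm38.p6. Of the Igf2 windows, the one with a motif match is shown. Capitals mark the letters TGCCGC, the core recognised by the imprint-maintaining factor ZFP57, or GGGGCCCC, a palindrome bound by PLAGL1, both searched on both strands.
Plagl1, chr10:13090582-13090881, plus strand: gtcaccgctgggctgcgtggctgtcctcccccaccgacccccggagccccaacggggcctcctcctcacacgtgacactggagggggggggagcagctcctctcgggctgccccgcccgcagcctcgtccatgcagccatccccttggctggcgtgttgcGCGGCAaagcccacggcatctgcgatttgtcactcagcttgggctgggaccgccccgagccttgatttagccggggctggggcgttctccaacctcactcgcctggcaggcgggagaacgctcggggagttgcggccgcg
Igf2, chr7:142661222-142661521, minus strand: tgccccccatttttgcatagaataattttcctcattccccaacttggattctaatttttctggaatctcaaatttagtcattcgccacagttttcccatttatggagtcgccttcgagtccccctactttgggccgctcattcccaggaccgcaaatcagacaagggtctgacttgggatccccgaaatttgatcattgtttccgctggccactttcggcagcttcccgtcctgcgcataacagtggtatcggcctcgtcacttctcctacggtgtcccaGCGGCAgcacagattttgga
Kcnq1ot1, chr7:143296498-143296797, minus strand: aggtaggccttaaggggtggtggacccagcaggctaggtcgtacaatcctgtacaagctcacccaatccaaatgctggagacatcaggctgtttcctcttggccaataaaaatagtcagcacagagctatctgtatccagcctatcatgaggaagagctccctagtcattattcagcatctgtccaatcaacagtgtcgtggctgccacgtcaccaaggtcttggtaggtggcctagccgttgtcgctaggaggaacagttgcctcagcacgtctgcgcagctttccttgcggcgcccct
Peg3, chr7:6730370-6730669, minus strand: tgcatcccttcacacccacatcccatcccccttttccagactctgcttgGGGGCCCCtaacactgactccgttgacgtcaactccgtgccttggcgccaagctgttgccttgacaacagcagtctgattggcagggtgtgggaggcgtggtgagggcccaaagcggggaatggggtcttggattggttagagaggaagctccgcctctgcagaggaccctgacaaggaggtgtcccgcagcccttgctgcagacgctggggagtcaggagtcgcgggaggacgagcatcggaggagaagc

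The first motif was in 10 of 40 windows of the imprinted genes (9 of the 26 genes with a window), and in 11.6% of 32851 windows of all genes. The palindrome was in 2 of the 40, the overlapping Peg3 and Usp29 windows, and in 1.08% of all windows. Some windows of a gene overlap, and a match is a run of letters, not a bound site.

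The libraries held between 11516780 counts (KO mTEC) and 19171953 counts (WT mTEC 1). Levels below are CPM, read counts relative to the library total after scaling by trimmed mean of M-values (TMM). In KO cTEC, Mcl1 stood at 8.22 CPM (128 counts), against 228 to 302 CPM in WT cTECs, and edgeR called it lower (log2 fold change -4.97 ± 0.44, adjusted p = 0.000295). In KO mTEC it stood at 78.6 CPM, against 113 and 203 CPM in WT mTECs, below both, and the difference did not pass (edgeR adjusted p = 0.538). The summed level of 10 cTEC markers was 9899 CPM in KO cTEC and 5180 to 10430 CPM in WT cTECs, and 2490 CPM in KO mTEC and 2108 to 2304 CPM in WT mTECs. In KO cTEC, edgeR called 3 of the 10 higher and 0 lower (30%, against 17.5% of all genes), led by Ackr4, at 776 CPM against 146 to 189 CPM. Of 8 general TEC markers, 5 were higher and 0 lower (62.5%), and they summed to 10410 CPM in KO cTEC and 5722 to 6289 CPM in WT cTECs. WT cTECs also held RNA of mature mTEC genes and of thymic tuft cells, chemosensory cells of the medulla. The summed level of 8 tuft markers was 38.7 CPM in KO cTEC, with Trpm5, Gnat3, Hepacam2 and Rgs13 at 0, and 1043 to 1689 CPM in WT cTECs. The summed level of 10 mature mTEC markers was 1944 CPM in KO cTEC and 3261 to 3903 CPM in WT cTECs. Most of it in KO cTEC was Krt14 and Krt5, and the other 8 summed to 22.2 CPM in KO cTEC and 1152 to 1465 CPM in WT cTECs. Of these 8, Aire and Csn2 were at 0 in KO cTEC, and their level was 28.9 to 116 CPM (Aire) and 97.4 to 126 CPM (Csn2) in WT cTECs. Ccl21a, also among the 8, was at 1.54 CPM in KO cTEC and 656 to 963 CPM in WT cTECs, most of their sum there. Between the WT populations, edgeR called Ccl21a, Krt5 and Krt14 lower in mTECs and the other 7 of the 10 higher, so the sum is not a measure of mature mTEC RNA alone. In such bulk samples, fewer cells of a type and less RNA per cell cannot be told apart.

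Few imprinted genes were abundant in TECs. Gnas, which encodes the stimulatory G protein alpha subunit, was the highest of the 33 in cTECs when counts were scaled per kilobase of annotated length, at 216 CPM per kb in KO cTEC and 162 CPM per kb in WT cTECs. In mTECs the highest was Cdkn1c, which encodes p57, an inhibitor of cyclin-dependent kinases, at 178 CPM per kb in KO mTEC and 215 CPM per kb in WT mTECs. Cdkn1c ranked second in WT cTECs at 56.6 CPM per kb and was not among the 8 highest in KO cTEC. A mean of at least 1 CPM was reached by 18 of 33 genes in KO cTEC, 24 in WT cTECs, 27 in KO mTEC and 27 in WT mTECs. The summed level of all 33 without Gnas was 402 CPM in KO cTEC and 601 to 803 CPM in WT cTECs, below all 4. It was 900 CPM in KO mTEC and 1062 and 1126 CPM in WT mTECs.

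**Figure D1:**
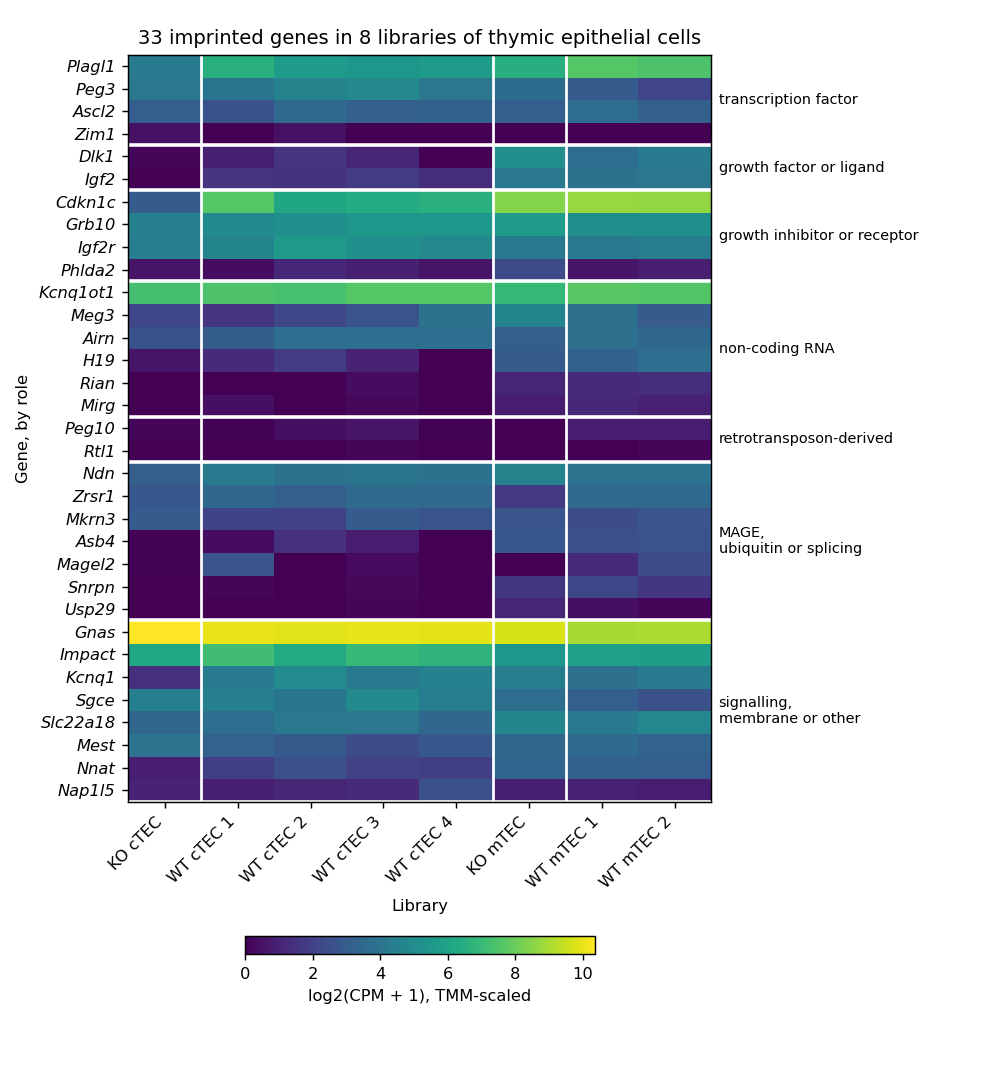
Level of each of the 33 imprinted genes (rows, grouped by role) in each of the 8 libraries (columns), as log2 of CPM plus 1 (colour scale). Gnas is the brightest row in every library, Cdkn1c, Plagl1 and Kcnq1 are darker in KO cTEC than in all 4 WT cTEC libraries, and Dlk1, H19, Snrpn, Rian and Asb4 are brighter in the 3 mTEC libraries than in the cTEC libraries.

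Genes were tested where the level reached 1 CPM in at least 2 libraries, before TMM scaling, which 28 of the 33 did. The 5 that did not were Peg10 and Rtl1, derived from retrotransposons and needed in the placenta, the zinc finger gene Zim1, the non-coding RNA Mirg and the deubiquitinase gene Usp29. Their highest values were 0.791 CPM for Peg10 (WT mTEC 2), 0.109 CPM for Rtl1 (WT cTEC 3), 0.385 CPM for Zim1 (KO cTEC), 1.26 CPM for Mirg (WT mTEC 1) and 1.17 CPM for Usp29 (KO mTEC). Snrpn and Rian passed through mTEC libraries alone, so a difference between the populations was built into their passing. Of the cTECs, Asb4 reached 1 CPM in WT cTEC 2 alone and Magel2 in WT cTEC 1 alone, so both needed an mTEC library to pass. Phlda2 reached 1 CPM in WT cTEC 2 and KO mTEC alone. Calls are by edgeR's quasi-likelihood test at a Benjamini-Hochberg adjusted p under 0.05 over all 18163 genes tested.

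KO cTECs were compared with WT cTECs to see how the knock-out library differs in the cortical population. Of the 28 listed genes tested, edgeR called Cdkn1c, Plagl1, Igf2 and Kcnq1 lower in KO cTEC and 0 higher. The 4 lower calls are 14.3% of the 28 tested, against 12.4% of all genes tested, and the 0 higher calls stand against 5.1%. The share of members called is near that of all genes, so the calls describe single genes and are no result about imprinted genes as a class. At an unadjusted p under 0.05 there were 10 of 28, against 32.1% of all genes. The median log2 fold change was -0.88 over the 28 and -0.14 over all genes tested. With Igf2 at its counting bound, and without Snrpn and Rian, which were at or under the floor in both groups, it was -0.77. KO cTEC lay below every WT cTEC library for 13 of 28, against 32.9% of all genes, and above every one for 3, against 29% of all genes.

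Cdkn1c (Entrez 12577, chromosome 7, 143458339 to 143461059, GRCm38.p6) was at 7.002 CPM in KO cTEC, against 197, 69.1, 80.6 and 93.5 CPM in WT cTECs 1 to 4. KO cTEC was far under the lowest WT library, and WT cTEC 1 was the highest. The log2 fold change was -3.97 ± 0.68 (SE; edgeR adjusted p = 0.00574). Other inhibitors of cyclin-dependent kinases were measured as a list: of 6 tested, 3 fell and 1 rose in KO cTEC (66.7% called, against 17.5% of all genes). Cdkn1a, which encodes p21, fell the most (-4.23 ± 0.40, edgeR adjusted p = 0.000363), and Cdkn2c, which encodes p18, was the 1 that rose (1.32 ± 0.28, edgeR adjusted p = 0.0145).

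Plagl1 (Entrez 22634, chromosome 10, 13090832 to 13131694) was at 18.4 CPM in KO cTEC, against 94.3, 51.0, 41.8 and 48.9 CPM in WT cTECs 1 to 4. The KO library again lay under all 4, with WT cTEC 1 the highest of them. Its log2 fold change was -1.68 ± 0.46 (edgeR adjusted p = 0.0392), the weakest of the 4 calls. The call did not hold without WT cTEC 2 (adjusted p = 0.0612), without WT mTEC 1 (0.0696) or WT mTEC 2 (0.0679), with cTEC libraries alone (0.0507) and with limma-voom (0.0785), while the fitted change stayed between -1.81 and -1.36 in all alternatives run.

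Igf2 (Entrez 16002, chromosome 7, 142650768 to 142666816), which encodes insulin-like growth factor 2, had no count in KO cTEC, against 29, 25, 47 and 28 counts or 2.07, 1.84, 2.55 and 1.53 CPM in WT cTECs 1 to 4. With 3 counts taken as the upper limit of a count of 0 (0.193 CPM in KO cTEC), it was at least 10.4-fold lower than the WT mean of 2.00 ± 0.43 CPM (SD, n = 4). The edgeR adjusted p was 0.00257, and the call was lost with limma-voom (adjusted p = 0.0916). Such limits cover counting error only, since reads carry no molecular identifiers. The level in WT cTECs was itself low.

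Kcnq1 (Entrez 16535, chromosome 7, 143106877 to 143427050), the pore-forming subunit of a voltage-gated potassium channel, was at 1.61 CPM in KO cTEC, against 18.8, 30.4, 18.6 and 22.3 CPM in WT cTECs 1 to 4. All 4 WT libraries exceeded the KO library by a wide margin. The log2 fold change was -3.80 ± 0.50 (edgeR adjusted p = 0.00172), and the call held in all 13 alternatives run for it, as did that of Cdkn1c. Within Kcnq1 lies Kcnq1ot1, an antisense non-coding RNA that silences neighbouring genes on the paternal chromosome. It was at 156 CPM in KO cTEC and 160 to 195 CPM in WT cTECs, below all 4, and the difference did not pass (-0.22 ± 0.20, edgeR adjusted p = 0.474). Its whole span of 83437 bases overlaps the Kcnq1 gene on the other strand, and the library kit named in the labels is not stated to keep strand, so intronic reads of Kcnq1 and reads of Kcnq1ot1 cannot be told apart.

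The growth regulators and ligands that were not called had mixed values. Grb10, an adaptor that dampens insulin and IGF receptor signalling, was at 22.0 CPM in KO cTEC and 29.7 to 44.2 CPM in WT cTECs. Igf2r, the receptor that clears IGF2, was at 20.7 CPM in KO cTEC and 24.8 to 46.1 CPM in WT cTECs. Both KO values lay under all 4 WT libraries without passing the test (edgeR adjusted p = 0.0951 and 0.23). Dlk1, a Notch-related ligand, had 2 counts in KO cTEC, while WT cTECs 1 to 4 had 12, 28, 20 and 0 counts. Phlda2, which restrains placental growth, was at 0.514 CPM in KO cTEC and 0.285 to 1.25 CPM in WT cTECs, within the WT range.

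Peg3, a zinc finger factor, was at 16.8 CPM in KO cTEC and 15.1 to 28.5 CPM in WT cTECs. Ascl2, a basic helix-loop-helix factor of trophoblast and intestinal stem cells, was at 7.58 CPM in KO cTEC and 5.13 to 10.6 CPM in WT cTECs. Mest, which encodes a protein of the hydrolase fold, was at 14.3 CPM in KO cTEC and 4.45 to 8.48 CPM in WT cTECs, above all 4 (edgeR adjusted p = 0.103). Gnas was above all 4 as well, at 1306 CPM in KO cTEC and 938 to 1017 CPM in WT cTECs (edgeR adjusted p = 0.151, and called by DESeq2). Mkrn3, a RING finger gene that restrains puberty, was at 7.07 CPM in KO cTEC and 3.17 to 7 CPM in WT cTECs.

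Of the Prader-Willi cluster on chromosome 7, Ndn (necdin, of the MAGE family) was at 7.71 CPM in KO cTEC and 13.4 to 18.5 CPM in WT cTECs, below all 4 (edgeR adjusted p = 0.0939). Nnat, which encodes the small membrane protein neuronatin, was also below all 4, at 0.835 CPM in KO cTEC and 2.78 to 4.86 CPM in WT cTECs. Its edgeR adjusted p was 0.0718, and DESeq2 called it lower. Impact, an inhibitor of the stress kinase GCN2, was at 73.1 CPM in KO cTEC and 79.3 to 144 CPM in WT cTECs, below all 4 (edgeR adjusted p = 0.206). Sgce, which encodes epsilon-sarcoglycan, was at 21.3 CPM in KO cTEC and 15.4 to 28.9 CPM in WT cTECs, with the KO library inside the WT range.

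Zrsr1, a relative of the splicing factor U2AF, was below all 4 as well, at 6.23 CPM in KO cTEC and 8.11 to 11.02 CPM in WT cTECs (edgeR adjusted p = 0.294). Nap1l5, of the nucleosome assembly family, was at 0.964 CPM in KO cTEC and 0.855 to 4.99 CPM in WT cTECs. Some genes had few counts in KO cTEC. Asb4, which encodes a SOCS-box protein, and Magel2, a MAGE-family regulator of ubiquitin ligases, each had 1 count in KO cTEC, with 0 to 24 counts (Asb4) and 0 to 79 counts (Magel2) in WT cTECs. Snrpn, which encodes a core protein of spliceosomal particles, and the non-coding RNA Rian had no count in KO cTEC and at most 3 and 5 counts in a WT cTEC library.

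The non-coding RNAs H19 and Meg3 did not separate the groups. H19 had 8 counts in KO cTEC and 19, 35, 18 and 0 counts in WT cTECs 1 to 4, and Meg3 was at 3.66 CPM in KO cTEC and 1.92 to 13.8 CPM in WT cTECs. Airn, which silences Igf2r on the paternal chromosome, was at 5.08 CPM in KO cTEC and 7.34 to 12.8 CPM in WT cTECs (edgeR adjusted p = 0.134). Airn and Igf2r overlap by 28396 bases on opposite strands, with the same limit on telling them apart.

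Other values move with these differences. Tuft and mature mTEC markers were lower in KO cTEC, as given above, and 12 haematopoietic markers summed to 26.1 CPM in KO cTEC and 191 to 280 CPM in WT cTECs, with only Adgre1 at 0 in KO cTEC. Most of that sum in WT cTECs was Lyz2, at 9.25 CPM in KO cTEC and 121 to 223 CPM in WT cTECs, and the other 11 summed to 16.8 CPM in KO cTEC and 25.2 to 73.1 CPM in WT cTECs. Mesenchyme markers summed to 1132 CPM in KO cTEC and 1143 to 2266 CPM in WT cTECs, of which Gsn made up 623 CPM in KO cTEC and 975 to 1978 CPM in WT cTECs. The other 11 summed to 509 CPM in KO cTEC and 154 to 336 CPM in WT cTECs, the opposite direction, and Col1a1, a collagen gene among them, was at 81.5 CPM in KO cTEC and 5.92 to 15.7 CPM in WT cTECs. Among the WT cTEC libraries, the one with the highest Plagl1 and Cdkn1c, library 1, had the highest level of 5 of the 10 mature mTEC markers (Aire, Cd80, Cd40, Cd52 and Csn2), the lowest of 2 (Krt14 and Krt5) and the lowest sum over all 10. Without Krt14 and Krt5 its sum was the highest, at 1465 CPM in WT cTEC 1 and 1152 to 1376 CPM in WT cTECs 2 to 4. The 10 cTEC markers also had their highest sum in library 1, at 10430 CPM, against 5180 to 8218 CPM in WT cTECs 2 to 4. Of the 12 haematopoietic markers, library 1 had the highest level of 4 and the lowest of 0. Of the 8 tuft markers, it had the highest of 2 and the lowest of 2. The part of all these markers in the result was not tested. Without WT cTEC 1 the count of imprinted genes called was 7, with Airn and Grb10 lower and Mest higher in addition to the 4.

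**Figure D2:**
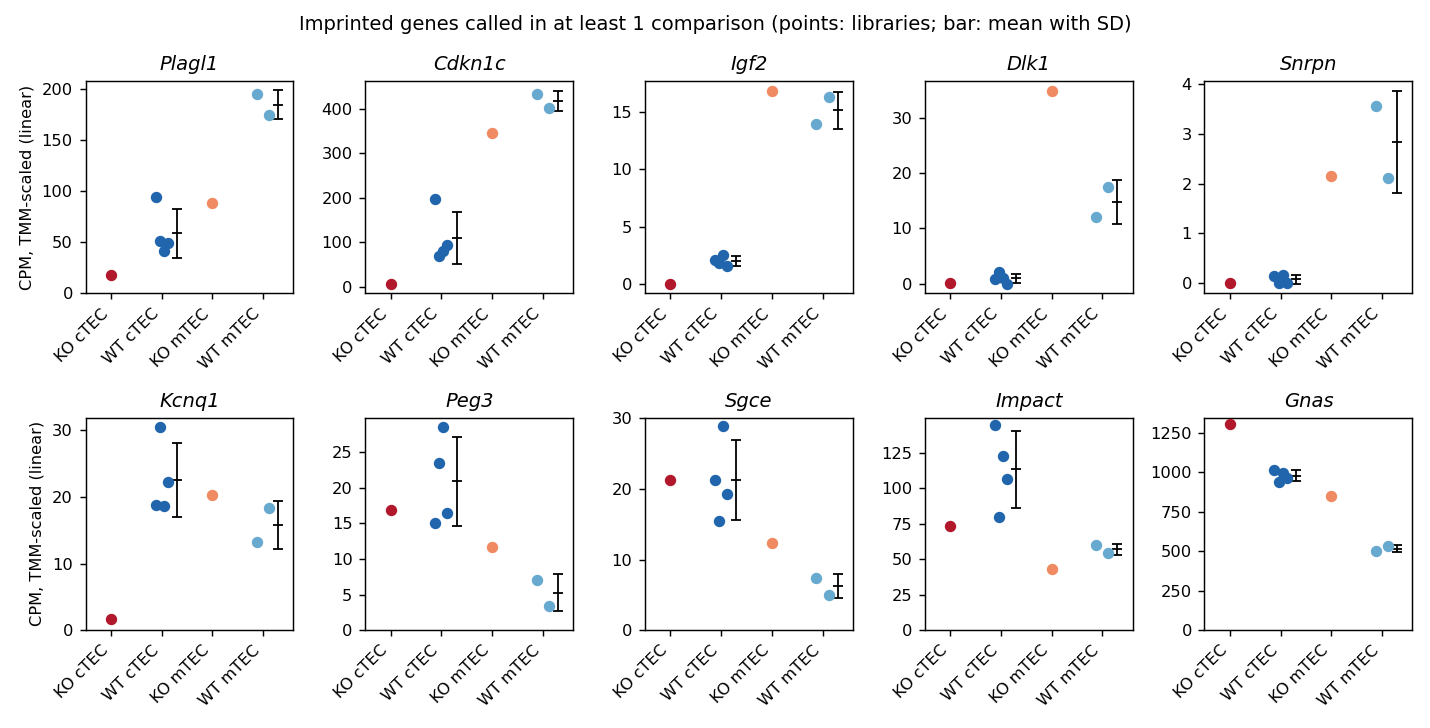
TMM-scaled CPM (linear axes, 1 panel per gene) in each library for the 10 imprinted genes called in at least 1 comparison, with points for libraries and bars for mean and SD where a group has over 1 library. KO cTEC lies under all 4 WT cTEC libraries for Plagl1, Cdkn1c, Igf2 and Kcnq1, and the WT mTEC points lie above those of WT cTECs for Plagl1, Cdkn1c, Igf2, Dlk1 and Snrpn and below them for Peg3, Sgce, Impact, Gnas and Kcnq1.

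Genes of the same pathways were counted from lists. Of 17 IGF pathway genes, 1 rose and 4 fell in KO cTEC (29.4% called, against 17.5% of all genes). Igfals, which encodes a serum carrier subunit of IGF complexes, had no count in KO cTEC while WT cTECs averaged 21.0 ± 6.44 CPM (SD, n = 4), and it was at least 109-fold lower (edgeR adjusted p = 0.000404). Igfbp4, an IGF binding protein, was the 1 that rose, at 1078 CPM in KO cTEC and 215 to 404 CPM in WT cTECs (1.70 ± 0.28, edgeR adjusted p = 0.00479). Of 16 genes that set or maintain imprints, 2 rose and 1 fell (18.8% called). Uhrf1, which recruits the maintenance methyltransferase to replicated DNA, rose by 1.69 ± 0.46 on the log2 scale (edgeR adjusted p = 0.0384), and the methylcytosine dioxygenase gene Tet2 fell by 0.92 ± 0.21 (edgeR adjusted p = 0.0203). Of another 42 imprinted genes tested, 3 rose and 8 fell (26.2% called, against the same 17.5%). The largest of these changes were those of the amino acid transporter gene Slc38a4 (1.99 ± 0.31, edgeR adjusted p = 0.00354) and of Ddc, which encodes aromatic amino acid decarboxylase (-4.98 ± 0.93, edgeR adjusted p = 0.00836).

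In mTECs the knock-out library was compared with 2 WT libraries. No imprinted gene was called by edgeR, and 0% of all genes tested were called. At an unadjusted p under 0.05 there were 4 of 28 imprinted genes, against 8.27% of all genes. DESeq2 called 2, Gnas higher and Zrsr1 lower, and limma-voom called 0. The KO library lay above both WT libraries for 12 of 28 and below both for 11, against 38.7% and 41.7% of all genes. The median log2 fold change was 0.11 over the 28 and -0.03 over all genes tested.

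The 4 genes with an unadjusted p under 0.05 were Gnas, Zrsr1, Kcnq1ot1 and Plagl1. Gnas was at 853 CPM in KO mTEC, against 501 and 533 CPM in WT mTECs. Zrsr1 was at 2.35 CPM in KO mTEC, against 11.3 and 10.5 CPM in WT mTECs. Kcnq1ot1 was at 118 CPM in KO mTEC, against 202 and 189 CPM in WT mTECs. For all 3 the KO value lay clear of both WT values. Plagl1 was at 88.7 CPM in KO mTEC, against 195 and 175 CPM in WT mTECs, below both.

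The genes that fell in KO cTEC did not all stand lower in KO mTEC. Cdkn1c was at 345 CPM in KO mTEC, against 434 and 402 CPM in WT mTECs. Igf2 was at 16.9 CPM in KO mTEC, against 14.0 and 16.3 CPM in WT mTECs. Kcnq1 was at 20.2 CPM in KO mTEC, against 13.2 and 18.4 CPM in WT mTECs. Neither Igf2 nor Kcnq1 was lower in KO mTEC than in WT mTECs, and Cdkn1c was below both by less than its distance in cTECs.

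Of the 28 genes tested, 12 stood above both WT mTEC libraries in KO mTEC, against 38.7% of all genes, and none passed. Dlk1 was at 34.8 CPM in KO mTEC, against 11.98 and 17.5 CPM in WT mTECs. Meg3, a non-coding RNA of the same cluster on chromosome 12, was at 24.6 CPM in KO mTEC, against 13.2 and 6.75 CPM in WT mTECs. Phlda2 was at 4.15 CPM (46 counts) in KO mTEC, against 0.55 and 0.844 CPM (10 and 16 counts) in WT mTECs. The edgeR adjusted p was 0.853 for Dlk1, 0.791 for Meg3 and 0.605 for Phlda2. Peg3, Sgce, Ndn and Grb10 were higher than in both WT mTECs too, at 11.6, 12.3, 24.0 and 52.1 CPM in KO mTEC, against at most 7.09, 7.42, 14.5 and 34.5 CPM in WT mTECs. Magel2 had no count in KO mTEC, against 26 and 80 counts in WT mTECs, and edgeR did not call it (adjusted p = 0.742).

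The other imprinted genes tested did not pass in mTECs either. H19 was at 6.68 CPM in KO mTEC, against 8.19 and 12.1 CPM in WT mTECs, and Airn at 7.85 CPM in KO mTEC, against 13.1 and 10.2 CPM in WT mTECs. Impact was at 43.1 CPM in KO mTEC, against 59.7 and 54.0 CPM in WT mTECs, and Ascl2 at 7.49 CPM in KO mTEC, against 11.9 and 8.07 CPM in WT mTECs. These 4 were below both WT libraries, as were Igf2r, at 17.2 CPM in KO mTEC, against 17.4 and 19.4 CPM in WT mTECs, and Rian, with 12 counts in KO mTEC, against 26 and 29 counts in WT mTECs. Nnat stood above both, at 9.30 CPM in KO mTEC, against 8.19 and 7.59 CPM in WT mTECs, and so did Asb4, at 5.96 CPM in KO mTEC, against 4.84 and 5.38 CPM in WT mTECs. Mest, Mkrn3, Snrpn and Nap1l5 lay within the WT mTEC range.

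Mesenchyme markers move with these values. The summed level of 12 such markers was 1485 CPM in KO mTEC and 393 and 387 CPM in WT mTECs, without Gsn the other 11 summed to 617 CPM in KO mTEC and 75.2 and 62.5 CPM in WT mTECs, and Col1a1 was at 111 CPM in KO mTEC and 8.35 and 13.8 CPM in WT mTECs. Only Twist2 was at 0 in KO mTEC. Dcn, an imprinted gene of the mouse placenta that encodes the matrix proteoglycan decorin, was at 575 CPM in KO mTEC and 129 and 98.9 CPM in WT mTECs (edgeR adjusted p = 0.0961), and is named here after its values were seen. Endothelial markers summed to 165 CPM in KO mTEC and 116 and 39.6 CPM in WT mTECs. Their part in the values of Dlk1, Meg3 and Peg3 was not tested.

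**Figure D3:**
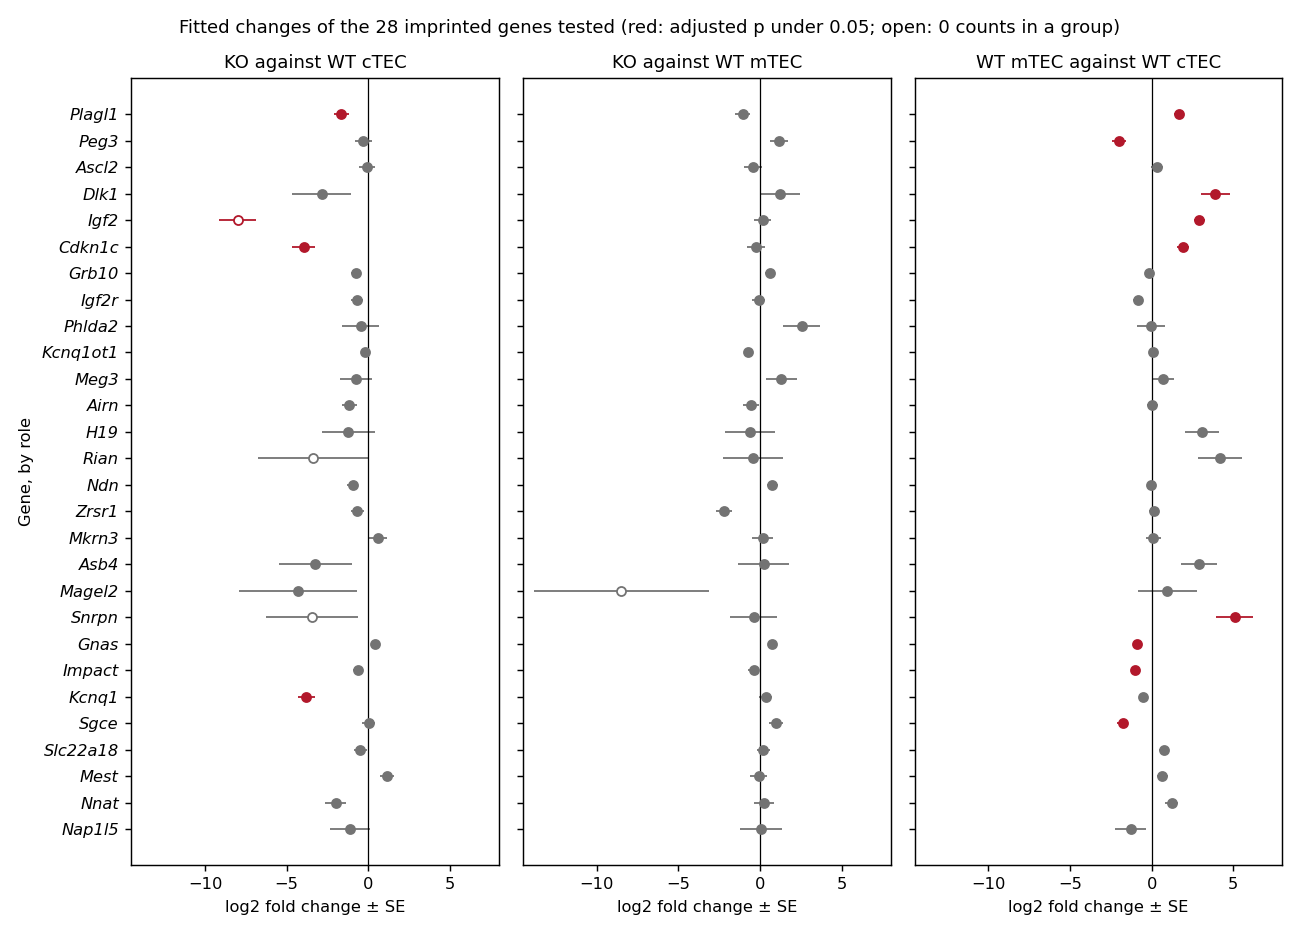
Fitted log2 fold change with SE (horizontal axis) of the 28 imprinted genes tested (rows, by role) in 3 comparisons (panels), red where the edgeR adjusted p is under 0.05 and open where a group has 0 counts, so that the fitted size depends on the prior count. In KO against WT cTEC, 4 genes are red and all 4 lie left of 0, in KO against WT mTEC none is red, and in WT mTEC against WT cTEC 5 are red to the right and 4 to the left.

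The difference between these KO effects was itself tested. Mcl1 itself differed, by 3.96 ± 0.50 on the log2 scale (mTEC minus cTEC, edgeR adjusted p = 0.00277), so the depletion of its transcript was smaller in the KO mTEC library than in the KO cTEC library. Among imprinted genes the difference was called for Cdkn1c, Igf2 and Kcnq1, all with the more negative effect in cTECs, which is 10.7% of the 28 against 6.16% of all genes in that direction, 0.644% in the other and 6.81% in either. The difference, mTEC minus cTEC, was 3.69 ± 0.81 on the log2 scale for Cdkn1c (edgeR adjusted p = 0.0311) and 4.16 ± 0.61 for Kcnq1 (edgeR adjusted p = 0.00553). For Igf2 the edgeR adjusted p was 0.00761, and no size is given since KO cTEC was at 0 counts. For Plagl1 the difference was 0.62 ± 0.60 and did not pass (edgeR adjusted p = 0.646). For Cdkn1c the call did not hold without WT cTEC 4 (adjusted p = 0.0523), WT mTEC 1 (0.0917) or WT mTEC 2 (0.1), and limma-voom called none of the 3. In the same test, 4 of the other 42 imprinted genes, 1 of 17 IGF pathway genes, 2 of 6 cyclin-dependent kinase inhibitors and 0 of 16 imprint maintenance genes were called (9.52%, 5.88%, 33.3% and 0%, against 6.81% of all genes), all with the more negative effect in cTECs. For Dcn, 1 of the 4, KO cTEC (573 CPM) lay within the WT cTEC range (557 to 812 CPM), while KO mTEC (575 CPM) lay above both WT mTECs (129 and 98.9 CPM). No gene of these lists was called in KO mTEC against WT mTECs. A difference was also called for 8 of 8 tuft and 6 of 10 mature mTEC markers (100% and 60%), again more negative in cTECs. The tuft markers summed to 712 CPM in KO mTEC and 754 and 845 CPM in WT mTECs. Without Krt14 and Krt5, the other 8 mature mTEC markers summed to 2914 CPM in KO mTEC and 2719 and 3114 CPM in WT mTECs. The part of these markers in the differences of Cdkn1c, Igf2 and Kcnq1 was not tested.

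Cdkn1c, Kcnq1 and Igf2 lie on distal chromosome 7, in 2 neighbouring imprinted clusters. On an axis of distance from the start of Kcnq1ot1, the start of Cdkn1c lies at 164.5 kb, that of Kcnq1 at -189.7 kb and that of Igf2 at -629.7 kb. Of 6 genes of the Kcnq1ot1 cluster, 2 fell in KO cTEC, and the other 4 (Kcnq1ot1, Ascl2, Phlda2 and Slc22a18) did not pass. Slc22a18, of a family of organic cation transporters, starts next to Cdkn1c and was at 9.57 CPM in KO cTEC and 10.1 to 16.5 CPM in WT cTECs. In KO mTEC it was at 26.2 CPM, against 18.7 and 26.8 CPM in WT mTECs.

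**Figure D4:**
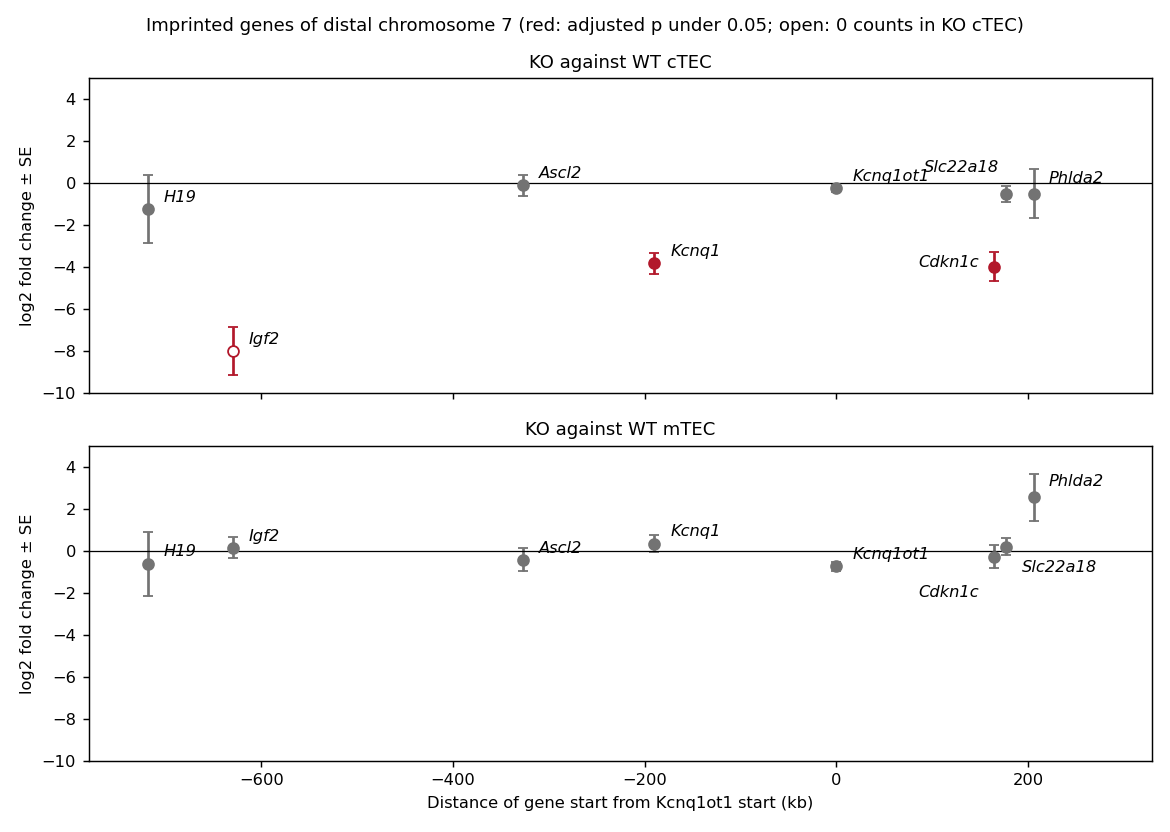
Fitted log2 fold change with SE (vertical axis) of 8 imprinted genes of distal chromosome 7 against the distance of their start from that of Kcnq1ot1 (horizontal axis, kb), for KO against WT cTEC (top) and KO against WT mTEC (bottom), with Igf2 open where KO cTEC has 0 counts. In the top panel Igf2, Kcnq1 and Cdkn1c are red and lie below -3, with Kcnq1ot1 near 0 between Kcnq1 and Cdkn1c, and in the bottom panel none of the 8 is red.

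WT mTECs were compared with WT cTECs to describe the populations without the knock-out. The WT libraries are the same as in the comparisons above. Cdkn1c, Plagl1, Igf2, Dlk1 and Snrpn were higher in mTECs, and Gnas, Impact, Sgce and Peg3 were lower. The 9 calls are 32.1% of the 28 tested, against 27% of all genes (17.9% higher, against 13.2%, and 14.3% lower, against 13.9%), so the share called is near that of all genes. The median log2 fold change was 0.22 over the 28 and 0.06 over all genes tested. All WT mTEC values lay above all WT cTEC values for 11 of 28 and below for 6, against 30.2% and 24.7% of all genes. Snrpn (in the 9 and the 11) and Rian (in the 11) passed the filter through mTEC libraries alone, so a difference was built into these entries. Asb4, also in the 11, needed an mTEC library to pass the filter.

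Cdkn1c was at 434 and 402 CPM in WT mTECs and, with the 4 values given above, at most 197 CPM in WT cTECs (log2 fold change 1.93 ± 0.37, edgeR adjusted p = 0.00894). Plagl1 was at 195 and 175 CPM in WT mTECs and at most 94.3 CPM in WT cTECs (1.65 ± 0.30, edgeR adjusted p = 0.00704). Both mTEC libraries were above all 4 cTEC libraries for both genes. Igf2, at 14.0 and 16.3 CPM in WT mTECs and at most 2.55 CPM in WT cTECs, was higher by 2.92 ± 0.35 (edgeR adjusted p = 0.00178). It was the 1 gene of the 9 whose call held in every alternative run.

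Dlk1 was at 11.98 and 17.5 CPM in WT mTECs, against 0.855, 2.06, 1.09 and 0 CPM in WT cTECs 1 to 4 (3.90 ± 0.89, edgeR adjusted p = 0.016). Snrpn had 65 and 40 counts in WT mTECs, against 2, 0, 3 and 0 counts in WT cTECs 1 to 4 (edgeR adjusted p = 0.0144). The groups did not overlap for either. Snrpn passed the filter through mTEC libraries alone, so a difference in this direction was built into its being tested. Snrpn is transcribed together with Snhg14, a long non-coding RNA of the same span.

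Gnas was at 501 and 533 CPM in WT mTECs and 938 to 1017 CPM in WT cTECs, a log2 fold change of -0.92 ± 0.15 (edgeR adjusted p = 0.00487). Sgce was at 7.42 and 5.01 CPM in WT mTECs and 15.4 to 28.9 CPM in WT cTECs (-1.77 ± 0.34, edgeR adjusted p = 0.00897). Peg3 was at 7.09 and 3.43 CPM in WT mTECs and 15.1 to 28.5 CPM in WT cTECs (-1.99 ± 0.42, edgeR adjusted p = 0.0124). For these 3 genes both mTEC libraries were below all 4 cTEC libraries. Impact, at 59.7 and 54.0 CPM in WT mTECs and 79.3 to 144 CPM in WT cTECs, had a log2 fold change of -0.99 ± 0.24 (edgeR adjusted p = 0.0202).

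Cluster partners of the genes called are given by their values, since none of those named next was called. Usp29, head to head with Peg3, had 6 and 2 counts in WT mTECs and 0, 0, 2 and 0 counts in WT cTECs. Peg10, next to Sgce, had 14 and 15 counts in WT mTECs and 1, 4, 10 and 1 counts in WT cTECs. Asb4, of the same cluster, was at 4.84 and 5.38 CPM in WT mTECs and 0 to 1.77 CPM in WT cTECs, above all 4 without passing (edgeR adjusted p = 0.0862). It had needed an mTEC library to enter the test. H19, the maternally expressed partner of Igf2, was at 8.19 and 12.1 CPM in WT mTECs and 0 to 2.58 CPM in WT cTECs (edgeR adjusted p = 0.0583). Rian, of the Dlk1 cluster, had 26 and 29 counts in WT mTECs and 0, 0, 5 and 0 counts in WT cTECs (edgeR adjusted p = 0.0521). Among genes with overlapping groups, Nap1l5 was at 0.934 and 0.791 CPM in WT mTECs and 0.855 to 4.99 CPM in WT cTECs.

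The count of 9 rests on a pair of mTEC libraries: it was 3 without WT mTEC 1 (Igf2, Peg3 and Sgce) and 1 without WT mTEC 2 (Igf2). The call of Impact was also lost without WT cTEC 3 (edgeR adjusted p = 0.0517). Endothelial markers differed within the pair, with a summed level over 8 markers of 116 and 39.6 CPM in WT mTECs and 35.4 to 52.0 CPM in WT cTECs. Mesenchyme markers summed to 393 and 387 CPM in WT mTECs and 1143 to 2266 CPM in WT cTECs, and haematopoietic markers to 787 and 1056 CPM in WT mTECs and 191 to 280 CPM in WT cTECs. Most of the last was Lyz2, at 740 and 993 CPM in WT mTECs and 121 to 223 CPM in WT cTECs, while the other 11 summed to 47.0 and 63.1 CPM in WT mTECs and 25.2 to 73.1 CPM in WT cTECs and overlapped. Without Gsn the other mesenchyme markers summed to 75.2 and 62.5 CPM in WT mTECs and 154 to 336 CPM in WT cTECs. Twist2 was at 0 in WT mTEC 1, and no other marker of these lists was at 0 in a WT mTEC library. Their part in the differences of Dlk1, Peg3 or Sgce was not tested.

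Of the 16 imprint maintenance genes, 2 were higher and 2 lower in WT mTECs (25% called, against 27% of all genes). Dppa3, which protects maternal marks in the zygote, was at 43.4 and 75.1 CPM in WT mTECs, against 9.27, 1.33, 2.77 and 0.0548 CPM in WT cTECs 1 to 4 (4.16 ± 1.02, edgeR adjusted p = 0.0215). Zfp57, whose product reads the motif shown above, was at 2.03 and 1.16 CPM in WT mTECs and 6.13 to 10.6 CPM in WT cTECs (-2.33 ± 0.45, edgeR adjusted p = 0.00871). In the IGF list 4 of 17 were higher and 5 lower (52.9% called), led by Igfbp6 (3.34 ± 0.45, edgeR adjusted p = 0.00263) and Igfbp4 (-2.31 ± 0.27, edgeR adjusted p = 0.0017), and 2 of 6 cyclin-dependent kinase inhibitors were higher (33.3% called). Of the other 42 imprinted genes, 9 were higher and 14 lower (54.8% called, against 27% of all genes). The largest fall was that of Dcn, at 129 and 98.9 CPM in WT mTECs and 557 to 812 CPM in WT cTECs (-2.56 ± 0.24, edgeR adjusted p = 0.000955).

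Genes usually expressed from the maternal and from the paternal chromosome showed calls in both sets. In KO against WT cTEC, 2 of 11 tested maternal genes (Cdkn1c and Kcnq1) and 2 of 16 tested paternal genes (Plagl1 and Igf2) were lower. In WT mTECs against WT cTECs, 1 maternal gene was higher and none lower, and 4 paternal genes were higher and 3 lower. Gnas, whose expressed copy depends on the tissue, was kept apart. No test of the difference between these sets was made.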

How the data were processed

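Polyadenylated RNA from frozen TECs was amplified with a SMART-Seq kit, made into Nextera libraries and sequenced as paired ends, per the labels' protocols. The authors used featureCounts and build mm10, per the submitters' processing notes, and deposited raw counts and a length in bases for each of 27179 Entrez identifiers. The aligner, the annotation and tool versions were not given in the sources used here. The 8 columns of another count table match no sample label and were left out. RefSeq on GRCm38.p6 gave a symbol for 93% of identifiers.

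Samples were grouped by population and genotype. The 18163 genes at 1 CPM or more in 2 or more libraries were TMM-scaled and tested with edgeR 4.0.16 in R 4.3.3 by the robust quasi-likelihood F test, two-sided, with a separate mean for each group, which leaves 4 residual degrees of freedom. Each KO group is 1 library, assumed to vary like the WT libraries. The SE is the absolute log2 fold change divided by the square root of F. CPM are counts over TMM-scaled library totals. DESeq2 1.42.0, limma-voom 3.58.1, RLE factors, other filters, left-out libraries and a replicate block were alternatives. Fold changes are printed for imprinted genes called and for Mcl1, and otherwise where a result turns on one (Kcnq1ot1, the Plagl1 difference); of each other list, the called gene with the largest change in either direction may be named. The members and lists were chosen with earlier results of these data known. No 2 libraries of a group were the same within sampling noise.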

Additional observations from a re-analysis of the deposited data

Results flagged for a closer look

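Dixon's criterion flags 1 library far from the other 3 relative to the whole range. Within the 4 WT cTEC libraries it flagged 4 of the 28 imprinted genes tested. Its chance rate of about 1 in 20 groups assumes normally distributed values. That rate is not known for CPM from few counts, such as those of Rian and Magel2, so the count is not compared with it. Magel2 was at 5.63 CPM in WT cTEC 1 (79 counts), against 0, 4 and 0 counts in libraries 2 to 4. Airn was at 7.34 CPM in WT cTEC 1, the lowest, against 12.7 to 12.8 CPM in the others. Nap1l5 was at 4.99 CPM in WT cTEC 4 (91 counts), against 12, 16 and 26 counts in libraries 1 to 3. Rian was at 0.271 CPM in WT cTEC 3 (5 counts), with no count in the others.

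The KO effect differed between the populations, by the test of that difference in edgeR, for 3 of the 28 imprinted genes tested. The difference, mTEC minus cTEC, was 3.69 on the log2 scale for Cdkn1c and 4.16 for Kcnq1. The fitted value for Igf2, 8.16, depends on the prior count, since KO cTEC had 0 counts.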

How the results depend on the processing

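Counts below are imprinted genes called of those tested, then all genes called. For KO against WT cTEC they were 4 and 3179, 2 and 1726 with limma-voom, and 3 to 7 and 2256 to 4182 when 1 WT library was left out. Of the calls over all genes, 29.2% were higher with edgeR and 54.8% with limma-voom. For KO against WT mTEC they were 0 and 0, 2 and 139 with DESeq2, and 0 and 0 to 7 with 1 library left out. For WT mTEC against WT cTEC they were 9 and 4912, 14 with limma-voom, and 1 to 12 and 603 to 6762 with 1 library left out (3176 without WT cTEC 3). For the difference of KO effects they were 3 and 1236, 5 and 2050 with DESeq2, 0 and 104 with limma-voom (5 imprinted genes at an unadjusted p under 0.05), and 2 to 4 and 649 to 1849 with 1 library left out. Fewer samples enter the fits that leave a library out. The cause of the differences between tools was not tested.

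Numbers 1 and 2 are shared by WT cTEC and WT mTEC libraries. Over genes, same-numbered libraries had correlations of -0.158 and -0.0579 in their distance from the group mean, and no pairing was assumed. With the replicate block, 7 imprinted genes and 1985 genes in all were called between the WT populations, where Gnas, Impact and Snrpn lost the call and H19 gained one.

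Over 18 single-gene results and 239 pairs of a result and an alternative, 30 lost the call and none changed direction. Low counts limit Igf2, Snrpn and Dlk1 in WT cTECs, with at most 47, 3 and 28 counts in a library.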
